A study of Mus musculus with 4 samples.

Results

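The 40 genes described here act in mitosis, and they were chosen by symbol from a fixed list of cyclins, mitotic kinases, kinetochore, chromosome, spindle and cytokinesis genes. No measured value entered that rule, but the choice was made with earlier results of these data known. Each of the 40 was found once among the 55418 gene entries of the matrices, and all 40 passed the filter on low counts. Single cells came from the thymus of C57BL/6 mice carrying 1 of 2 fluorescent reporters, and the cells were enriched on Percoll, sorted for the reporter and profiled with droplet-based 3′ libraries that count unique molecular identifiers (UMIs). The MAFIA reporter stood in females aged 5 weeks of genotype Csf1r-EGFP-NGFR/FKBP1A/TNFRSF6, in which the Csf1r promoter, active in macrophages and monocytes and in part of the other myeloid cells, drives green fluorescence and an inducible death receptor. The Cd11cYFP mice were males aged 9 weeks of genotype Itgax-Venus, in which the promoter of the integrin CD11c, active in dendritic cells and many macrophages, drives yellow fluorescence. All mice were killed with CO2, and the labels name no other treatment. Reporter, age and sex differed together, so that their effects cannot be told apart. There were 2 libraries of each reporter. The methods of the study describe a single female MAFIA mouse and male Cd11cYFP mice, and the labels do not say from which mouse either MAFIA library came, so the p-values below measure only the spread between these libraries.

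MAFIA replicate 1 stood apart, with a median of 3980.5 UMIs per barcode against 15759 to 17493 in the other 3 libraries, and its cells were not assigned to classes. Every comparison of cell classes rests on the 23549 cells of MAFIA replicate 2 and of Cd11cYFP replicates 1 and 2, in which the 40 genes held 0.159% of all UMIs. Pairs of libraries shared 9 to 23 barcodes. The labels call the cells myeloid, but marker genes placed 21917 of the 23549 cells (93.1%) in 11 classes that included B cells, thymocyte-like cells, fibroblasts and thymic epithelial cells beside Timd4+ and Cx3cr1+ macrophages, monocytes, Xcr1+, Cd209a+ and Ccr7+ dendritic cells and plasmacytoid dendritic cells (pDC). The clustering left out 1606 genes, so that dividing cells could join the class of their own lineage. These were the 40 genes, other listed cell cycle genes, histone genes and genes correlated above 0.15 with the summed 40 in any library. Marker genes used for naming stayed in. The classes were thus formed after a filter that used the values of the 40 genes.

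Before a cell divides it copies its DNA, and at mitosis the copied chromosomes condense, attach through kinetochores to a spindle of microtubules and are pulled apart. Cdk1 bound to a B-type cyclin starts the process, Aurora and Polo-like kinases build and correct the spindle, the spindle checkpoint holds the anaphase-promoting complex back until every kinetochore is attached, and the cell body is then pinched in by cytokinesis proteins. Transcripts of these genes accumulate late in the cell cycle and are scarce in resting cells, for which reason they serve as a readout of division in mixed tissues such as the thymus, where developing T cells, dendritic cells and macrophages divide in place.

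Many promoters of late cell cycle genes carry a cell cycle homology region (CHR), bound by the DREAM and MuvB complexes, near CCAAT boxes, bound by NF-Y. The letters TTTGAA or TTCGAA, taken here for a CHR, CCAAT, and TTTGGCGC or TTCCCGCC, taken for an E2F site, were searched on both strands from 250 bases before to 50 bases after the annotated start of each protein-coding gene (GRCm39, GENCODE vM39), with each motif counted on its own. The CHR letters stood in 23 of the 40 windows (57.5%), against 18.8% of 21770 windows of the same length. CCAAT stood in 27 (67.5%), against 39.9%, and both motifs in 19 (47.5%), against 8.25%. The E2F letters were in 0 of the 40 windows and in 3.40% of all. The 150 bases before the start are given for a cyclin and a kinase that hold both motifs, for the macrophage example Bub1 and for Cks2 and Cenpa, the genes called in the interaction test of pDC given below, with CHR and CCAAT letters of either strand in capitals. They lie at chr9:70328875-70329024 (minus strand, Ccnb2), chr11:68936317-68936466 (plus, Aurkb), chr2:127673807-127673956 (minus, Bub1), chr13:51799118-51799267 (plus, Cks2) and chr5:30823971-30824120 (plus, Cenpa) of GRCm39, upstream of the first exon and outside annotated exons.
Ccnb2: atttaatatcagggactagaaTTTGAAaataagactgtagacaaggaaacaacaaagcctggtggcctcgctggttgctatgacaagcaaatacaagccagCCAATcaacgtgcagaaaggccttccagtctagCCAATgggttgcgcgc
Aurkb: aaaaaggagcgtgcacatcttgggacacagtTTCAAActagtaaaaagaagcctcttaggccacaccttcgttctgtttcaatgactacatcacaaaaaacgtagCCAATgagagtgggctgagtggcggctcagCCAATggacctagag
Bub1: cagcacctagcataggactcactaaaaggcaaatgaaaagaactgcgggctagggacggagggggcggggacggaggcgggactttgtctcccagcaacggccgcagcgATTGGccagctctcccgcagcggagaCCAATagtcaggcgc
Cks2: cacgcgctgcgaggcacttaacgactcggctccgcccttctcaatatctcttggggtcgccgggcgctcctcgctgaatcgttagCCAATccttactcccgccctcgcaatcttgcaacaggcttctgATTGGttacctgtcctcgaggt
Cenpa: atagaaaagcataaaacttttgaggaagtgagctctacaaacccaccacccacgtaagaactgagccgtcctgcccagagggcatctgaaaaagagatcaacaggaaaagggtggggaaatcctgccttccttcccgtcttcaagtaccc
Ccnb2 and Aurkb showed 1 CHR motif and 2 CCAAT boxes each in these stretches. Bub1 showed 2 CCAAT boxes, and its CHR letters lay 41 bases after the start, beyond the stretch shown. Cks2 and Cenpa held CCAAT boxes and no CHR letters in the searched windows. A match of letters is a description and not a binding site, and a window without a match says nothing of the factor.

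The mitosis transcripts were concentrated in a minority of cells. After each cell was thinned to 3000 UMIs, 1242 cells of MAFIA replicate 2 (20.0%), 1358 of Cd11cYFP replicate 1 (17.8%) and 1979 of Cd11cYFP replicate 2 (20.4%) held at least 3 UMIs of the 40 genes, and these cells are called mitosis-positive below. They contributed 26.4%, 24.4% and 27.6% of all UMIs of their libraries but 89.0%, 86.8% and 88.9% of the UMIs of the 40 genes. The share of a gene's own UMIs that lay in mitosis-positive cells was highest for Hmmr, a spindle pole protein, at 98.0%, followed by the kinetochore protein Cenpf at 97.5% and the Polo-like kinase Plk1 at 97.1%. It was lowest for the condensin subunit Smc4 at 67.1%, the Cdk1 partner Cks2 at 74.8% and the centromeric histone Cenpa at 80.6%, so that these 3 transcripts were also counted at some frequency outside the mitosis-positive cells. The threshold counts UMIs of all 40 genes together, each gene's own included, and these shares are a description.

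The summed level was close to equal in the 3 libraries, at 1619 CPM (counts-per-million scale, UMIs of these genes relative to all UMIs) in MAFIA replicate 2, 1459 in Cd11cYFP replicate 1 and 1660 in Cd11cYFP replicate 2. In MAFIA replicate 1 it was 999 CPM, and the distribution over barcodes had another shape. With every barcode thinned to 2600 UMIs, 7.79% of its barcodes held no mitosis UMI, against 45.8% to 47.3% in the other libraries, and 0.203% held 10 or more, against 7.42% to 9.69%. The variance of the UMI number divided by its mean was 1.15 in MAFIA replicate 1 and 18.0 to 18.6 in the others. Every one of the marker lists of the classes had detected genes in that library.

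**Figure D1:**
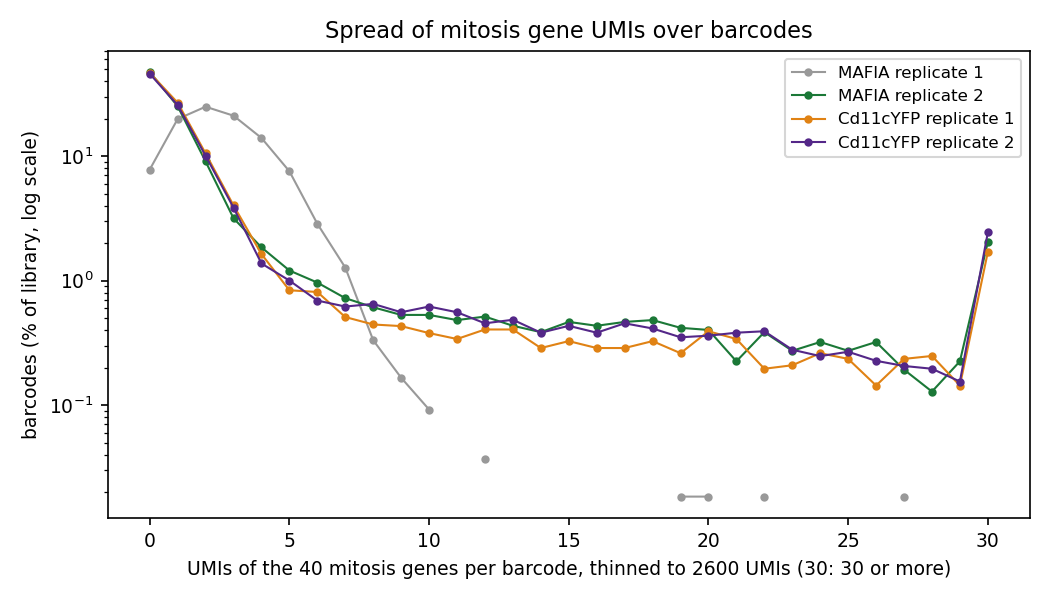
Percent of barcodes (log axis) against the number of UMIs of the 40 mitosis genes per barcode, with every barcode thinned to 2600 UMIs, as 1 line per library. MAFIA replicate 1 forms a narrow hump near its mean of 2.60 UMIs, whereas the other 3 libraries start at 45.8% to 47.3% of barcodes without a mitosis UMI and run out into a long tail.

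Among the named classes, thymocyte-like cells held the highest mean level of mitosis transcripts and Ccr7+ dendritic cells the lowest. Cells left unnamed stood at 3384 CPM in MAFIA replicate 2, 3645 in Cd11cYFP replicate 1 and 2286 in Cd11cYFP replicate 2. In MAFIA replicate 2 and Cd11cYFP replicate 1 these values lay above those of thymocyte-like cells. The 40 genes summed to 3718 ± 978 CPM (SD, n = 3 libraries) in thymocyte-like cells, 2384 ± 199 in Xcr1+ dendritic cells (the cross-presenting cDC1 lineage), 1974 ± 243 in Cd209a+ dendritic cells (the cDC2 lineage) and 1733 ± 186 in B cells. Cx3cr1+ macrophages followed at 1066 ± 228, pDC at 885 ± 371, monocytes at 786 ± 419, Timd4+ macrophages at 481 ± 187 and Ccr7+ dendritic cells, the activated state that carries antigen to T cells, at 388 ± 124. The lowest library of thymocyte-like cells lay above the highest of Xcr1+ dendritic cells, and the lowest of B cells above the highest of Cx3cr1+ macrophages. The libraries overlapped between Cd209a+ dendritic cells and B cells and between each neighbouring pair from Cx3cr1+ macrophages downwards. The thymocyte-like level rested on 1 cluster of 112 cells, and the other 835 cells of the class stood at 2505 CPM in MAFIA replicate 2, 1864 in Cd11cYFP replicate 1 and 2862 in Cd11cYFP replicate 2, a range that spans that of Xcr1+ dendritic cells. In MAFIA replicate 2 the lowest sums were those of Timd4+ macrophages (425 CPM) and pDC (465 CPM), below Ccr7+ dendritic cells (531 CPM). Fibroblasts (126 cells) and thymic epithelial cells (79 cells) averaged 667 and 582 CPM, on few cells.

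The mitosis-positive share of cells followed nearly the same order, at 40.2% ± 5.11 (SD, n = 3) of thymocyte-like cells, 31.2% ± 3.02 of Xcr1+ dendritic cells, 22.4% ± 2.55 of Cd209a+ dendritic cells, 21.8% ± 1.88 of B cells and 18.2% ± 2.31 of Cx3cr1+ macrophages. In Ccr7+ dendritic cells it was 7.20% in MAFIA replicate 2 (exact 95% interval 5.52 to 9.18), 5.62% in Cd11cYFP replicate 1 (4.52 to 6.88) and 5.11% in Cd11cYFP replicate 2 (4.24 to 6.10), with median depths of 17282.5, 13749 and 14052 UMIs before thinning. Ccr7+ dendritic cells are a mature state not known to divide, and their share serves here as a reference for the threshold; whether their positive cells divide was not tested. Timd4+ macrophages, at 8.39% (5.98 to 11.4), 8.74% (5.84 to 12.5) and 5.73% (3.24 to 9.27), had intervals that overlapped it in every library, and the share of pDC in MAFIA replicate 2 was below it at 4.56%. The intervals cover counting error only. Without thinning, with each cell's UMIs scaled to 3000, the shares in the order of the 3 libraries were 14.3%, 11.7% and 15.8% in Cx3cr1+ macrophages, 4.99%, 4.85% and 2.67% in Timd4+ macrophages and 4.51%, 1.81% and 1.96% in Ccr7+ dendritic cells. On that scale Xcr1+ dendritic cells had 31%, 28.3% and 23.2% and thymocyte-like cells 33.9%, 29.5% and 39.6%.

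**Figure D2:**
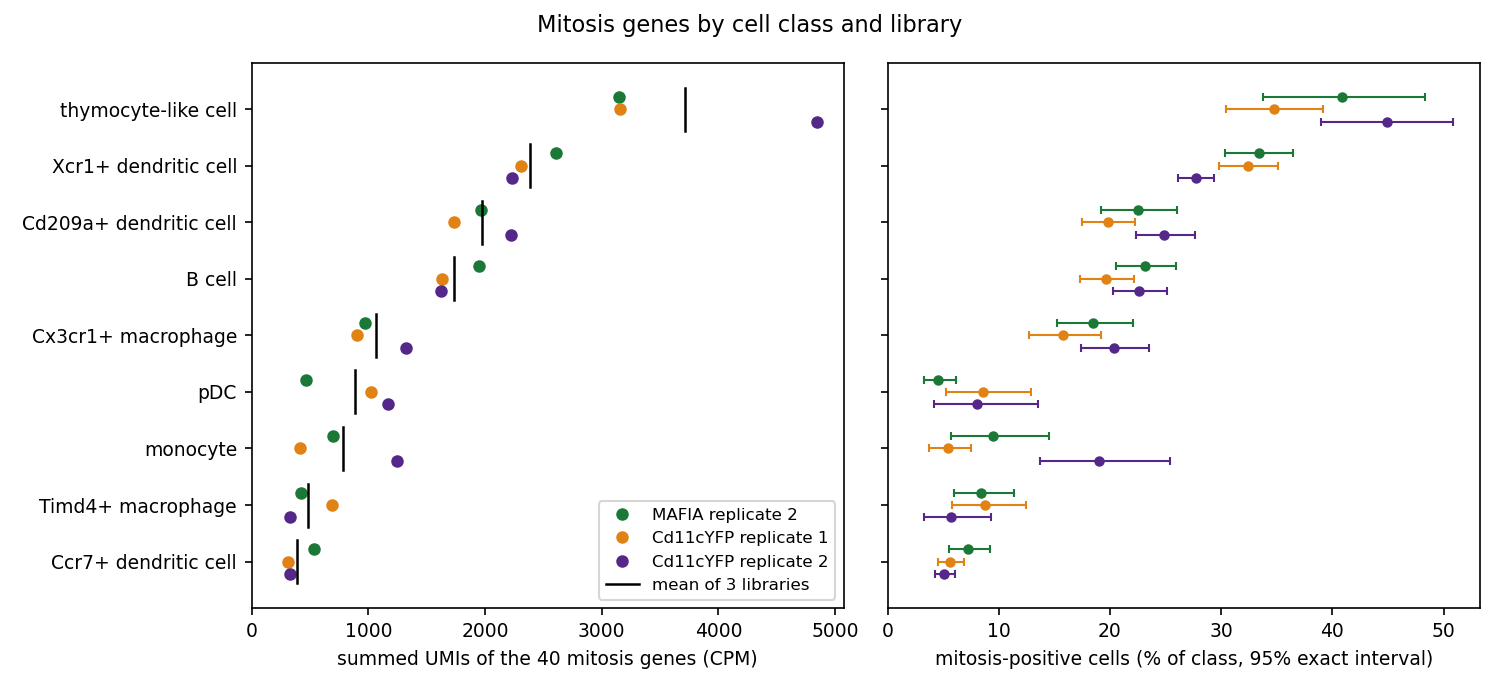
Left, summed level of the 40 genes (CPM) in each class, with a point per library and a line at the mean of the 3 libraries. Right, mitosis-positive percent of cells (at least 3 UMIs of the 40 genes in 3000) per class and library with exact 95% intervals. Thymocyte-like cells lie at 3150 to 4848 CPM and Ccr7+ dendritic cells at 309 to 531.

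The mitosis-positive share also varied between the clusters of a class. In the thymocyte-like class, a cluster of 112 cells led by Rag1, Dntt and Trbc2 was 92.9% positive and reached 12613 CPM, while the other 3 clusters stood at 2555 CPM (442 cells led by Xcl1 and Nkg7, 36.2% positive), 2478 and 1241 CPM. In a finer clustering (Leiden resolution 4), a cluster of 370 cells led by Xcl1 and Nkg7 was left out of the class as mixed. It scored 2.90 on thymocyte-like markers and 1.95 on cytotoxic lymphocyte markers. The name thymocyte-like thus also covers cells with cytotoxic lymphocyte markers. Clusters of Xcr1+ dendritic cells reached 3388 and 3056 CPM. Among Xcr1+ dendritic cells, a cluster of 654 cells led by the replication factor Pclaf and the histone gene H2ac8 was 49.4% positive, and among B cells a cluster of 792 cells was 39.9% positive. Timd4+ macrophages, Cx3cr1+ macrophages and monocytes were each made of 1 cluster.

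Of the 40 genes, 36 had their highest mean level in thymocyte-like cells among the 9 classes with many cells. The exceptions were Cdk1, the kinase that starts mitosis, and Kif23, a kinesin of the central spindle, in Xcr1+ dendritic cells, Cdca2, a phosphatase subunit of chromosomes, in B cells, and Kif2c, which removes tubulin from microtubule ends at kinetochores, in Cx3cr1+ macrophages. Kif2c stood at 20.2 CPM in MAFIA replicate 2, 20.5 in Cd11cYFP replicate 1 and 17.3 in Cd11cYFP replicate 2 in those macrophages, and at 17.4, 16.1 and 23.8 in thymocyte-like cells, so the libraries of the 2 classes overlapped. Cdk1 stood at 114, 83.5 and 77.4 CPM in Xcr1+ dendritic cells against 66.2, 56.9 and 92.8 in thymocyte-like cells, again with overlap. The lowest mean was in Ccr7+ dendritic cells for 33 genes and in Timd4+ macrophages for 7. In MAFIA replicate 2, however, it was in Timd4+ macrophages for 17 genes, in pDC for 15, in Ccr7+ dendritic cells for 6 and in monocytes for 2. The place of the highest level differed by library, since thymocyte-like cells led for 18 genes in MAFIA replicate 2, 32 in Cd11cYFP replicate 1 and 39 in Cd11cYFP replicate 2, and Xcr1+ dendritic cells for 18 in MAFIA replicate 2 and 7 in Cd11cYFP replicate 1.

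**Figure D3:**
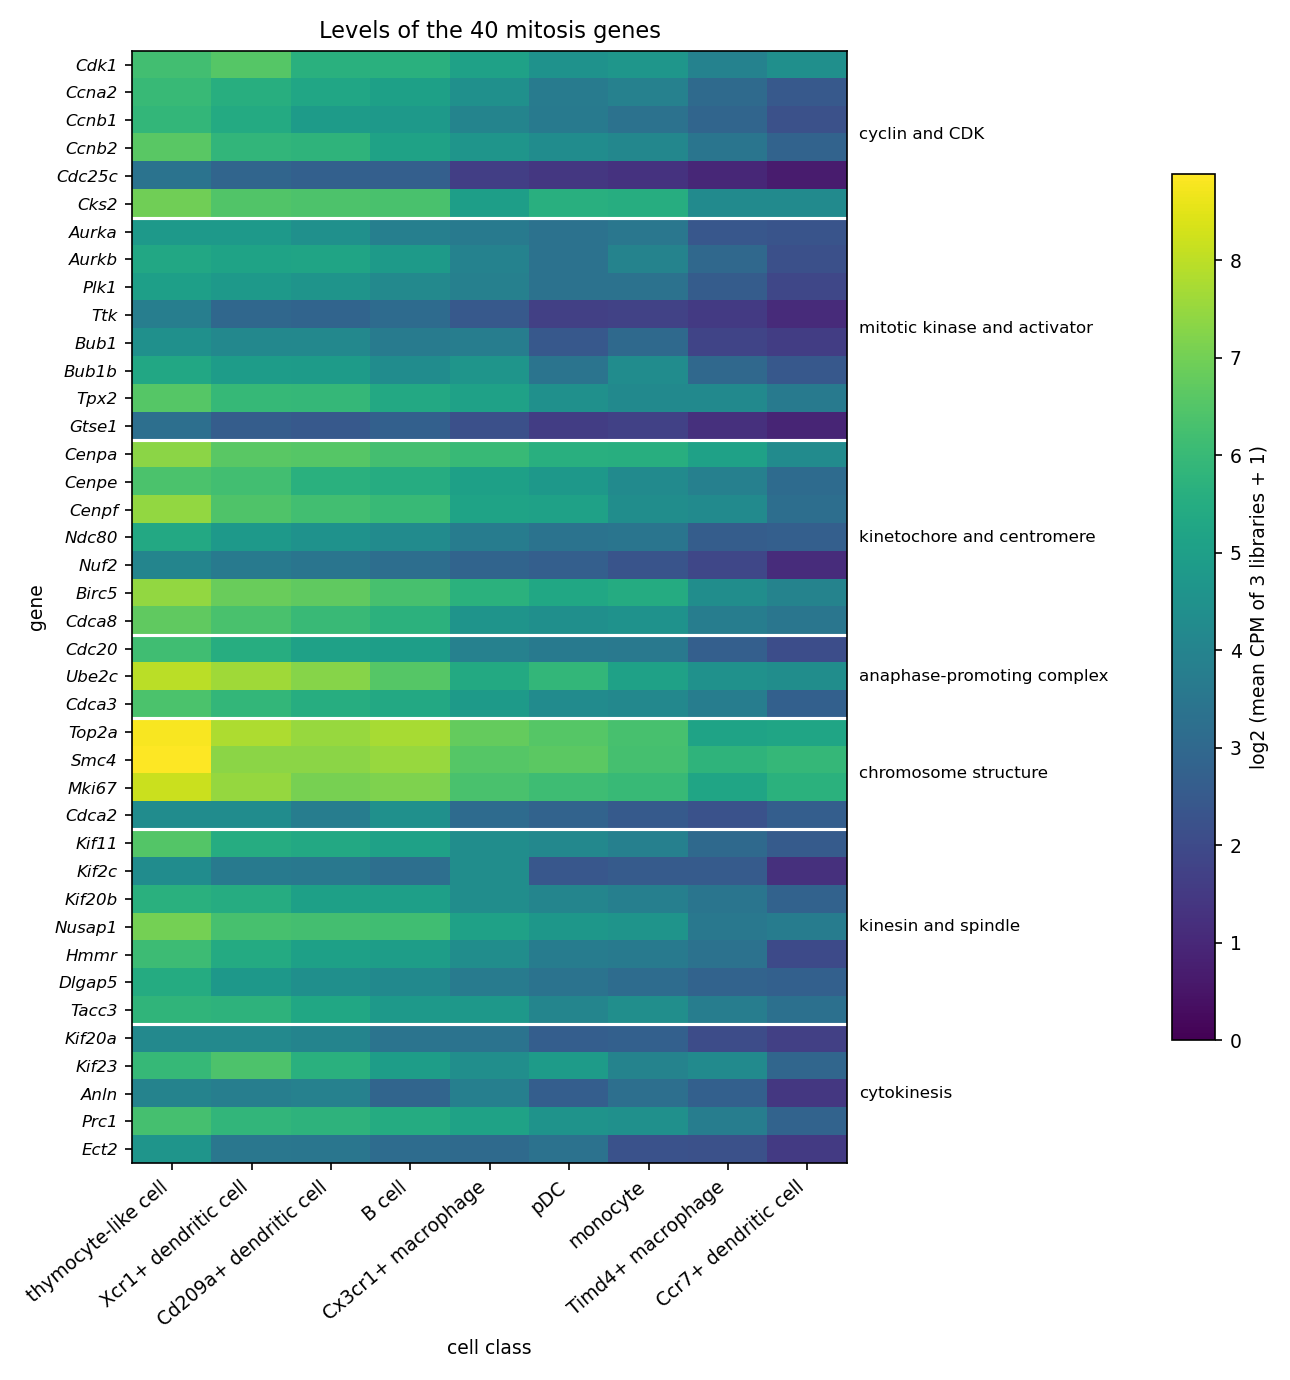
Level of each of the 40 genes, as log2 of the mean CPM of 3 libraries plus 1, in the 9 classes with many cells, with genes ordered by role. The columns of thymocyte-like cells and of Xcr1+ and Cd209a+ dendritic cells are brightest, and those of Ccr7+ dendritic cells and Timd4+ macrophages darkest, across all 7 roles.

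The composition of the mitosis RNA also differed between classes. The chromosome genes Top2a, Smc4, Mki67 and Cdca2 made up 39.6% ± 4.51 (SD, n = 3) of the UMIs of the 40 genes in Ccr7+ dendritic cells and 24.3% ± 1.12 in Xcr1+ dendritic cells. The group of Cdc20, which activates the anaphase-promoting complex, its ubiquitin-conjugating enzyme Ube2c and Cdca3 made up 12.5% ± 0.268 in Xcr1+ dendritic cells, 11.8% ± 0.304 in Cd209a+ dendritic cells, 7.84% ± 1.06 in Cx3cr1+ macrophages and 6.85% ± 2.38 in Ccr7+ dendritic cells. The 3 libraries of Xcr1+ dendritic cells did not overlap with those of Cx3cr1+ macrophages or of Ccr7+ dendritic cells in this share. Relative to 51 DNA replication genes, the summed mitosis genes stood at a ratio of 1.14 ± 0.0859 in Xcr1+ dendritic cells, 1.09 ± 0.177 in Cd209a+ dendritic cells and 1.06 ± 0.208 in thymocyte-like cells, and at 0.830 ± 0.0304 in B cells, 0.795 ± 0.0958 in Cx3cr1+ macrophages and 0.606 ± 0.171 in Ccr7+ dendritic cells.

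Which of the thymic macrophage populations carried transcripts of division was a question of the study. Cx3cr1+ macrophages held more mitosis RNA than Timd4+ macrophages, at 970 against 425 CPM in MAFIA replicate 2, 902 against 689 in Cd11cYFP replicate 1 and 1327 against 328 in Cd11cYFP replicate 2. In edgeR's quasi-likelihood test on class sums per library, 36 of the 40 genes were higher in Cx3cr1+ macrophages at an adjusted p under 0.05 and 0 were lower (39 passed at an unadjusted p under 0.05, all in the upward direction), where 14.6% of all 18535 genes tested were higher and 11.4% lower. The median log2 fold change of the 40 was 1.38, against 0.03 over all genes. Of all genes called, 56.1% were higher, and 31.1% with library-size scaling. Without Cd11cYFP replicate 2, 11 of the 40 were called higher. The 12 thymocyte markers, of which 11 or 12 were detected, summed to 489, 500 and 357 CPM in Timd4+ and 594, 515 and 366 CPM in Cx3cr1+ macrophages, and most of this was Cd4, which macrophages are also known to express. The 11 markers without Cd4 summed to 150, 131 and 62.9 CPM in Timd4+ and 79.6, 100.3 and 98.4 CPM in Cx3cr1+ macrophages, higher in Timd4+ cells in MAFIA replicate 2 and Cd11cYFP replicate 1 and lower in Cd11cYFP replicate 2.

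The rise reached all 7 roles, with 5 of 6 cyclin and Cdk genes, 8 of 8 kinases and activators, 6 of 7 kinetochore genes, 2 of 3 genes of the anaphase-promoting complex group, 4 of 4 chromosome genes, 7 of 7 kinesin and spindle genes and 4 of 5 cytokinesis genes called higher. Bub1, a checkpoint kinase at kinetochores, had the largest change, with 10.8, 10.5 and 16.6 CPM in Cx3cr1+ macrophages of MAFIA replicate 2 and Cd11cYFP replicates 1 and 2 against 3.01, 2.98 and 1.61 in Timd4+ macrophages. Its log2 fold change was 2.44 ± 0.36 (SE, edgeR adjusted p = 6.32e-06), and the libraries of the 2 classes did not overlap. Kif2c stood at 20.2, 20.5 and 17.3 CPM against 5.35, 5.95 and 3.22, a log2 fold change of 2.19 ± 0.363 (adjusted p = 3.34e-05, edgeR). The checkpoint protein Bub1b stood at 26.8, 20.0 and 25.4 CPM against 6.69, 9.52 and 4.84, again without overlap, with a log2 fold change of 1.96 ± 0.309 (adjusted p = 1.68e-05, edgeR).

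Of the genes in common use as proliferation markers, Top2a rose by more than the median of the 40 (1.38) and Mki67 by less. Both differed least between the classes in Cd11cYFP replicate 1. Top2a, which untangles sister DNA, stood at 105, 83.0 and 136 CPM in Cx3cr1+ and 28.0, 59.1 and 16.4 in Timd4+ macrophages (log2 fold change 1.83 ± 0.373, edgeR adjusted p = 0.00043). Mki67, the Ki-67 protein that coats mitotic chromosomes, stood at 80.4, 57.0 and 103 CPM against 35.3, 51.4 and 22.6 (1.29 ± 0.316, edgeR adjusted p = 0.00266), so that the 2 classes were close in Cd11cYFP replicate 1 and apart in the other libraries. The smallest called changes were those of Cks2 at 0.94 ± 0.305 (edgeR adjusted p = 0.0225) and Smc4 at 0.98 ± 0.173 (edgeR adjusted p = 7.55e-05). The 4 genes that were not called were the phosphatase Cdc25c (1.21 ± 0.547, edgeR adjusted p = 0.111), Cenpf (1.09 ± 0.414, adjusted p = 0.0527), Ube2c (1.08 ± 0.45, adjusted p = 0.0814) and Kif23 (0.31 ± 0.348, adjusted p = 0.595). Kif23 overlapped between the classes, at 14.0, 16 and 29.2 CPM in Cx3cr1+ and 12.9, 27.6 and 13.7 in Timd4+ macrophages.

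Among the remaining cyclins, Ccna2, which partners Cdk1 and Cdk2, stood at 18.5, 18.1 and 26.1 CPM in Cx3cr1+ and 7.13, 10.7 and 4.30 in Timd4+ macrophages (log2 fold change 1.65), Ccnb2 at 22.2, 21.0 and 28.9 against 8.25, 16.5 and 5.10 (1.46), and Cdk1 (1.39) and Ccnb1 (1.38) moved alike. Of the kinases and their activators, Aurka at the spindle poles (1.61), its activator Tpx2 (1.05), Plk1 (1.59), Aurkb of the chromosomal passenger complex (1.22), Ttk (1.57) and Gtse1 (1.68) were all called. Birc5, the survivin subunit of the passenger complex, stood at 48.9, 40.2 and 60.2 CPM against 16.7, 27.2 and 14.0 (1.55), without overlap, and its partner Cdca8 rose by 1.06. Of the kinetochore genes, Ndc80 (1.48) and Nuf2 (1.47), which form the complex that grips microtubules, Cenpe (1.35) and Cenpa (1.18) were called.

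The spindle and cytokinesis genes moved in the same direction. Nusap1, which bundles spindle microtubules, stood at 26.0, 28.0 and 44.2 CPM in Cx3cr1+ and 7.58, 19.0 and 5.64 in Timd4+ macrophages (log2 fold change 1.77), and the motor Kif11, which separates the spindle poles, at 15.4, 15.3 and 28.2 against 5.46, 13.5 and 2.96 (1.56). Hmmr (1.31), Tacc3 (1.26), Kif20b (1.15), Dlgap5 (1.15), Cdca2 (1.30) and Cdca3 (1.32) were also called. At the midzone and furrow, Kif20a had a log2 fold change of 1.75, Prc1, which crosslinks midzone microtubules, 1.56, the actin-binding anillin Anln 1.41 and Ect2 1.24. In Cd11cYFP replicate 1, the Timd4+ level of Nusap1 and Kif11 came closest to that of Cx3cr1+ macrophages, as for Top2a and Mki67.

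**Figure D4:**
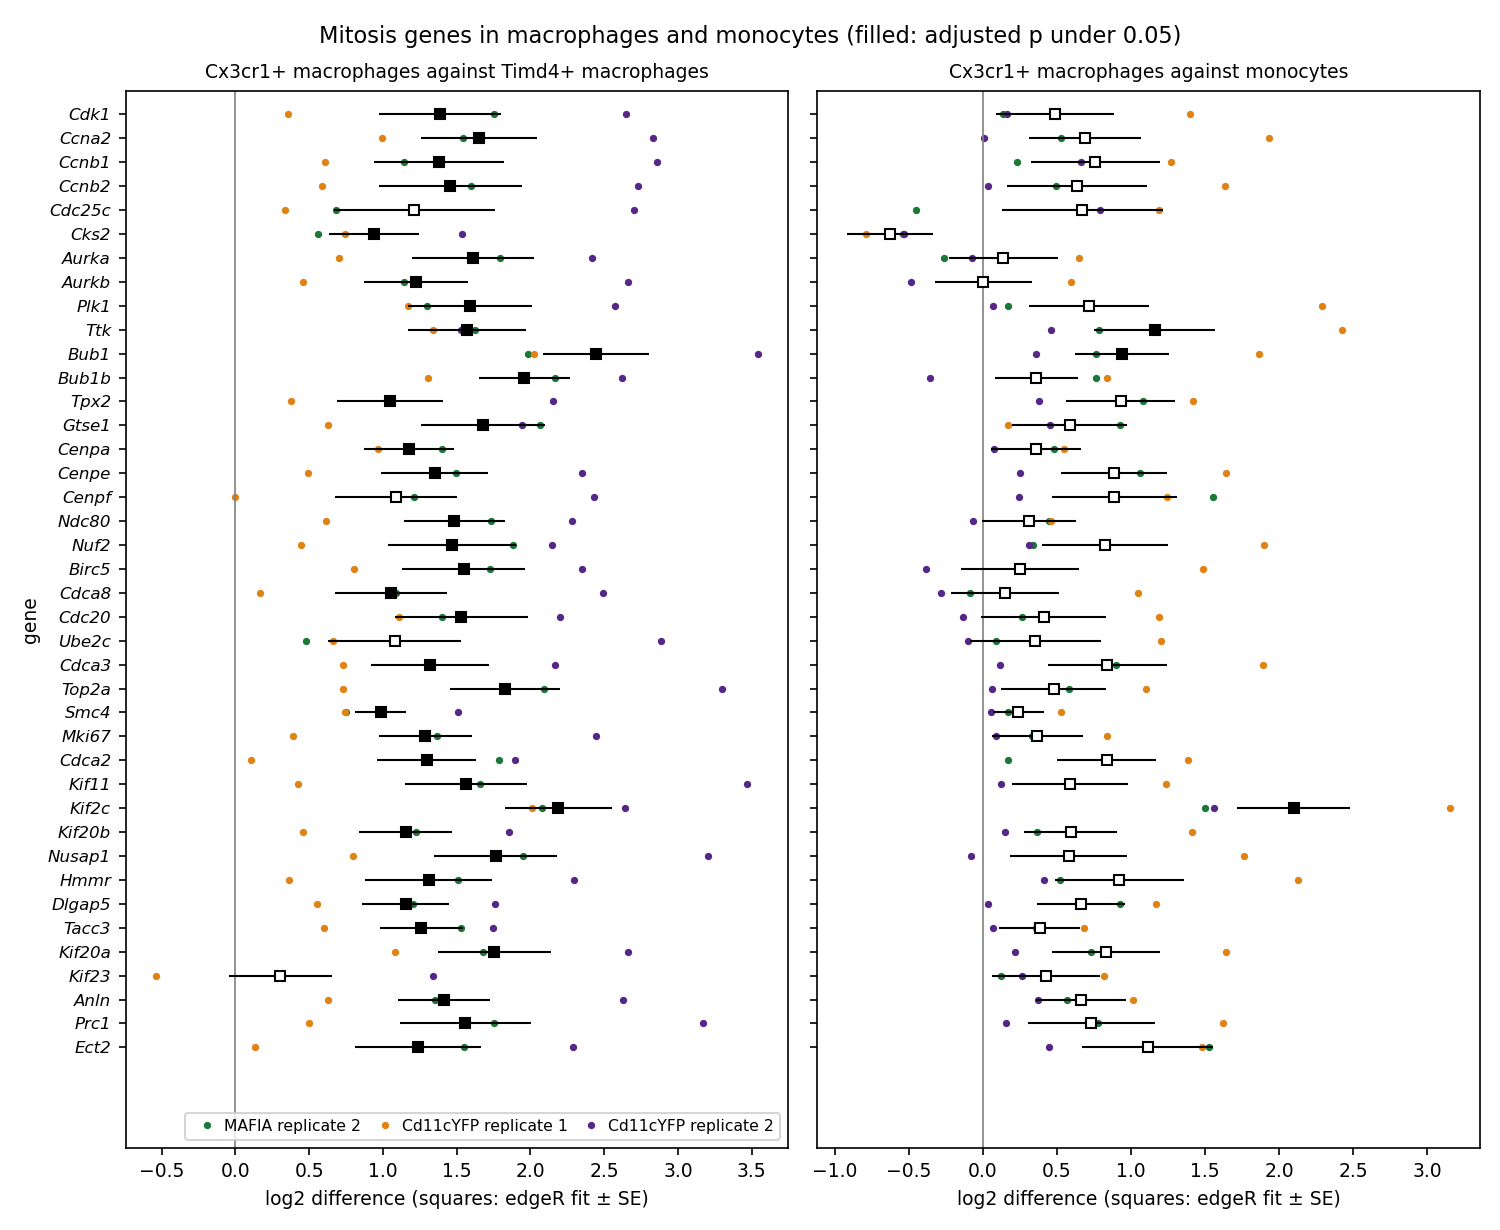
Log2 fold change of each of the 40 genes, with a small point per library and a square with its SE for the edgeR estimate, filled where the adjusted p was under 0.05, for Cx3cr1+ against Timd4+ macrophages and for Cx3cr1+ macrophages against monocytes. In the first comparison 36 squares are filled and all lie to the right of 0, and in the second 3 are filled.

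By cells, the mitosis-positive share was 18.5%, 15.7% and 20.3% of Cx3cr1+ macrophages (519, 521 and 713 cells) against 8.39%, 8.74% and 5.73% of Timd4+ macrophages (441, 309 and 262 cells), a ratio of 2.2, 1.80 and 3.55 with a mean of 2.52 ± 0.917 (SD, n = 3). The share was higher in Cx3cr1+ macrophages in 3 of 3 libraries, and an exact paired permutation test over 3 libraries cannot give a two-sided p below 0.25. Cx3cr1+ cells made up 72.2% (exact 95% interval 63.7 to 79.6), 75.2% (66.0 to 83.0) and 90.6% (85.0 to 94.7) of the mitosis-positive macrophages and 54.1%, 62.8% and 73.1% of all macrophages of the same libraries. Cells with a Mki67 UMI after thinning were 13.5%, 10.9% and 17.0% of Cx3cr1+ and 5.44%, 5.18% and 2.29% of Timd4+ macrophages. After removal of likely doublets the mitosis-positive shares were 19.0%, 15.3% and 20.1% in Cx3cr1+ and 7.03%, 6.25% and 4.80% in Timd4+ macrophages.

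Thymic macrophages engulf dying thymocytes, so thymocyte RNA was measured inside the mitosis-positive macrophages. Without Cd4, the other 11 thymocyte markers summed to 104, 94.7 and 135 CPM in the mitosis-positive Cx3cr1+ macrophages of the 3 libraries and to 73.5, 101 and 85.9 CPM in the other Cx3cr1+ macrophages, higher in 2 of 3 libraries. In Timd4+ macrophages they summed to 405, 264 and 22.4 CPM in mitosis-positive cells (37, 27 and 15 cells) and to 121, 114 and 66.6 CPM in the others, again higher in 2 of 3, with Cd11cYFP replicate 2 the exception. With Cd4 the sums were 518, 429 and 338 against 613, 533 and 376 CPM in Cx3cr1+ macrophages and 686, 461 and 227 against 467, 506 and 369 in Timd4+ macrophages, so that the direction depended on Cd4, which was lower in mitosis-positive cells of both classes in every library. Mitosis-positive cells were deeper, with medians of 27883, 20669 and 23114 UMIs in Cx3cr1+ macrophages against 24468, 19224 and 16447 in the other cells of that class. The part of engulfed RNA and of depth in the shares was not tested.

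Between Cx3cr1+ macrophages and monocytes, myeloid cells that enter tissues from the blood, few mitosis genes passed the test. In edgeR, 3 of the 40 were higher in the macrophages and 0 lower (14 at an unadjusted p under 0.05), beside 11.7% of all genes higher and 9.59% lower, so that the share of the 40 called higher was below the background. The median log2 fold change was 0.61, against 0.05 over all genes. In counts simulated for Cx3cr1+ against Timd4+ macrophages, the test called 20.9% of genes changed 1.5-fold. Genes not called here are thus not shown to be equal. Kif2c differed most, at 20.2, 20.5 and 17.3 CPM in Cx3cr1+ macrophages and 6.88, 2.06 and 5.64 in monocytes (log2 fold change 2.10 ± 0.38, edgeR adjusted p = 0.000138), with no overlap. Ttk, the Mps1 kinase of the spindle checkpoint, and Bub1 followed, with log2 fold changes of 1.16 ± 0.408 (edgeR adjusted p = 0.042) and 0.94 ± 0.32 (edgeR adjusted p = 0.0351). Cks2 had the only negative value, -0.63 ± 0.287 (edgeR adjusted p = 0.129). Monocytes had the widest mitosis-positive share of the large classes over libraries, at 696, 419 and 1243 CPM and 9.47%, 5.41% and 19.0% mitosis-positive cells, and 1 gene was called without Cd11cYFP replicate 1 and 6 without Cd11cYFP replicate 2. When cell cycle genes entered the clustering, 39 of the 40 were called. In that setting 30 of the 40 helped to form the classes, so the count is partly circular. Summed thymocyte markers were 98.4, 64.8 and 110 CPM in monocytes, and those without Cd4 51.7, 45.4 and 94.5 CPM, against 79.6, 100.3 and 98.4 CPM in Cx3cr1+ macrophages.

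Among dendritic cells, all 40 genes were higher in Xcr1+ than in Ccr7+ cells. The sums were 2608 against 531 CPM in MAFIA replicate 2, 2312 against 309 in Cd11cYFP replicate 1 and 2231 against 325 in Cd11cYFP replicate 2. In edgeR 26.3% of all genes were higher in Xcr1+ cells and 29.4% lower, and the median log2 fold change was 2.91 for the 40 genes and -0.13 for all. The values ran from 1.33 ± 0.167 for Smc4 to 3.84 ± 0.414 for Hmmr (edgeR adjusted p = 1.11e-07 and 7.38e-09). Hmmr stood at 46.3, 42.0 and 39.3 CPM in Xcr1+ and 4.68, 1.85 and 2.34 in Ccr7+ dendritic cells. Cdc20 was next at 3.79 ± 0.394 (edgeR adjusted p = 3.67e-09), with 50.6, 44.1 and 40.9 CPM against 5.47, 1.76 and 2.51. Smc4 stayed at 64.3, 57.1 and 55.6 CPM in Ccr7+ cells, against 176, 151 and 151 in Xcr1+ cells.

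Xcr1+ and Cd209a+ dendritic cells were much closer. All 40 log2 fold changes were positive, although Aurkb, Smc4 and Anln turned negative with library-size scaling, and their median was 0.49 against 0.04 over all genes. Of the 40, 7 passed in edgeR and 0 were lower (11 passed at an unadjusted p under 0.05), where 15% of all genes were higher and 14.5% lower. Cdk1 had the largest value, at 114, 83.5 and 77.4 CPM in Xcr1+ and 53.8, 42.6 and 48.5 in Cd209a+ cells (log2 fold change 1.16 ± 0.349, edgeR adjusted p = 0.012). Kif23 stood at 84.7, 83.8 and 83.0 CPM against 46.5, 45.1 and 55.4 (1.03 ± 0.296, edgeR adjusted p = 0.00865), the next largest, and both genes were without overlap between the classes. The other 5 called genes were Cdca2 (0.86), the kinetochore motor Cenpe (0.83), the kinesin Kif20b (0.74), the spindle protein Tacc3 (0.70) and the microtubule binder Dlgap5 (0.58), with edgeR adjusted p-values of 0.00532 to 0.0494. Scaling by library size in place of edgeR's trimmed means left 0 of the 40 called and moved the share of higher genes among all genes called from 50.8% to 24.5%. Without Cd11cYFP replicate 1, 3 of the 40 were called, and without Cd11cYFP replicate 2 or MAFIA replicate 2, 4 were called. The Cdk1 cyclins Ccnb1 and Ccnb2 stood at 51.1, 39.4 and 35 CPM against 29.9, 23.6 and 32.3 and at 62.8, 59.5 and 49.3 against 49.8, 54.1 and 58.0, and neither passed the test (edgeR adjusted p = 0.0739 and 0.579).

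**Figure D5:**
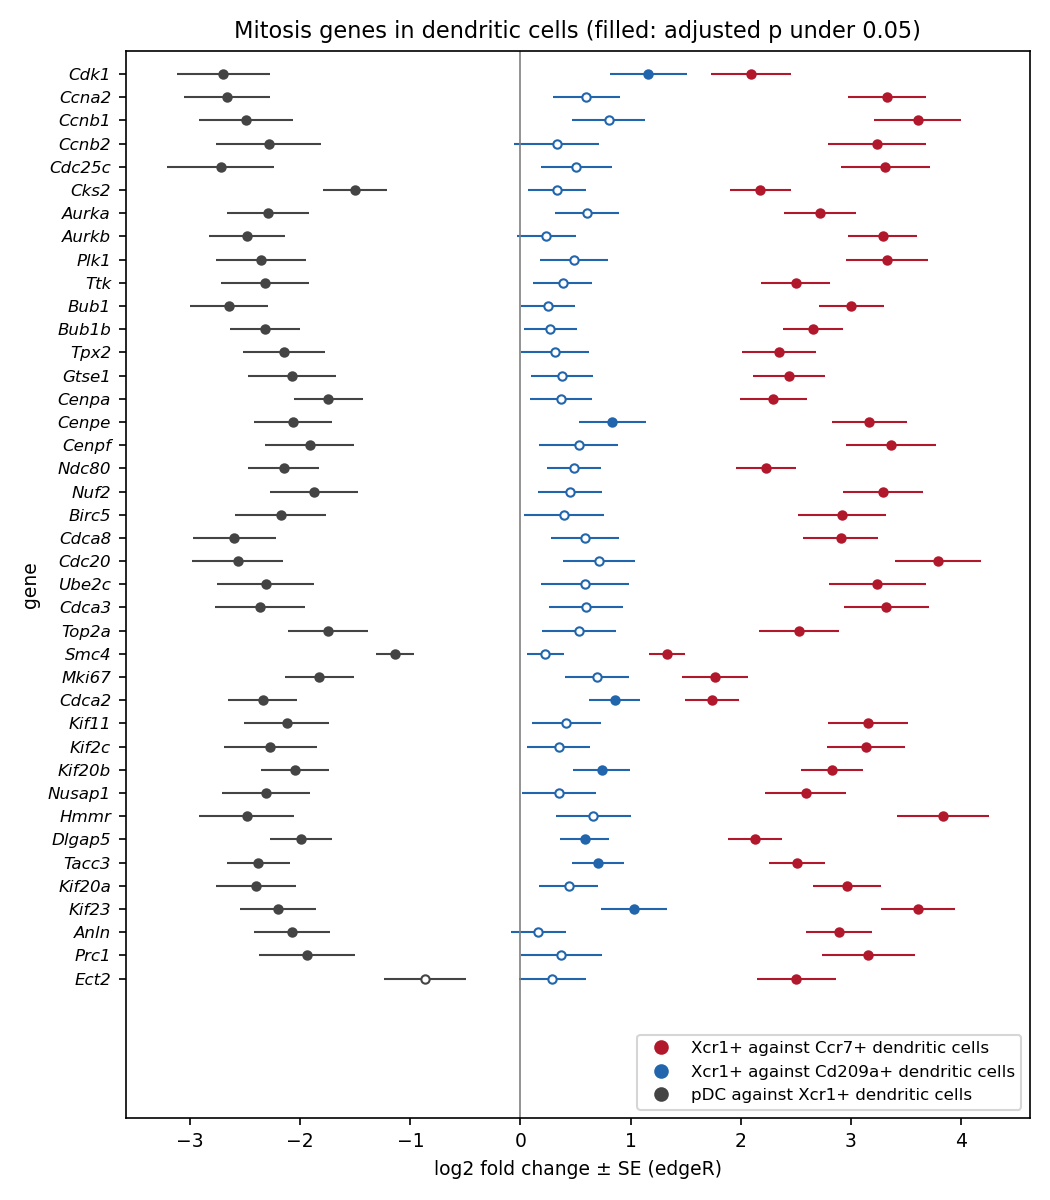
Log2 fold change (edgeR, ± SE) of each of the 40 genes for Xcr1+ against Ccr7+ dendritic cells, Xcr1+ against Cd209a+ dendritic cells and pDC against Xcr1+ dendritic cells, filled where the adjusted p was under 0.05. The values lie between 1.33 and 3.84 in the first comparison, between 0.16 and 1.16 in the second and between -2.72 and -0.87 in the third.

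Plasmacytoid dendritic cells, the interferon-producing lineage, held less of nearly every mitosis gene than Xcr1+ dendritic cells. In edgeR 39 of the 40 genes were lower in pDC and 0 higher, beside 25.8% of all genes lower and 20.6% higher, with a median log2 fold change of -2.28 against -0.12 over all genes. Of all genes called, 44.4% were higher in pDC, and 70.3% with library-size scaling. Cdc25c (-2.72 ± 0.488) and Cdk1 (-2.70 ± 0.421) fell most (edgeR adjusted p = 3.54e-05 and 5.12e-06). Cdk1 stood at 9.17, 21.9 and 35.9 CPM in pDC of the 3 libraries. Ect2, an activator of the small GTPase RhoA at the cleavage furrow, was the exception, at 3.63, 13.7 and 10.1 CPM in pDC and 10.8, 10.9 and 9.81 in Xcr1+ dendritic cells (-0.87 ± 0.376, edgeR adjusted p = 0.0608).

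The pDC of the MAFIA library had a lower level than those of the Cd11cYFP libraries, with a sum of 465 CPM over 899 cells, against 1023 over 234 cells and 1167 over 150 cells. The difference of this comparison between MAFIA replicate 2 and the mean of the Cd11cYFP libraries passed edgeR's interaction test for 2 of the 40 genes, against 0.237% of all genes. At an unadjusted p under 0.05, 22 of the 40 passed (55%), against 8.01% of all genes. For Cenpa the log2 difference in MAFIA minus that in Cd11cYFP was -2.22 (edgeR adjusted p = 0.00384), with 13.0, 62.1 and 67.2 CPM in pDC and 97.7, 108 and 84.4 in Xcr1+ dendritic cells. For Cks2 it was -1.80 (edgeR adjusted p = 0.0287), with 16.9, 59.5 and 67.2 CPM in pDC and 87.4, 86.9 and 86.1 in Xcr1+ dendritic cells. The MAFIA arm is 1 library, so the test takes its spread from the Cd11cYFP libraries over all classes (10 residual degrees of freedom) and assumes that MAFIA replicate 2 varies alike. Reporter, age, sex and library cannot be told apart in it. Over all comparisons together, more gene tests were called without the low-count filter than with it. In the other 5 comparisons the interaction was called for 0 of the 40 genes in edgeR. The shares of all genes called in these were 0.027% for Cx3cr1+ against Timd4+ macrophages, 0.0216% for Cx3cr1+ macrophages against monocytes, 0.178% for Xcr1+ against Ccr7+ dendritic cells, 0.0809% for Xcr1+ against Cd209a+ dendritic cells and 0.0108% for B cells against thymocyte-like cells. At an unadjusted p under 0.05 and in the same order, 0, 0, 6, 0 and 2 of the 40 passed, beside 3.94%, 3.32%, 6.66%, 4.54% and 4.88% of all genes. Mitosis-positive pDC held less of the pDC markers than the other pDC of the same library, at 6307, 5370 and 4164 CPM against 10010, 9514 and 9611, and 608, 755 and 411 CPM of thymocyte markers against 1148, 1280 and 959. Lower own markers were not particular to pDC. Monocytes had 1836, 2703 and 1190 against 4903, 4530 and 2144 CPM. B cells, both macrophage classes and Cd209a+ and Ccr7+ dendritic cells were also lower in every library. Thymocyte-like cells were higher in every library, and Xcr1+ dendritic cells in MAFIA replicate 2 only.

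B cells and thymocyte-like cells were the lymphoid classes with many mitosis transcripts. B cells summed to 1948, 1628 and 1624 CPM and thymocyte-like cells to 3150, 3156 and 4848, without overlap. In edgeR 10 of the 40 genes were lower in B cells and 0 higher (19 at an unadjusted p under 0.05), beside 15.2% of all genes lower and 18.4% higher, and the median log2 fold change was -0.65, against 0.07 over all genes. The most negative were Ect2 (-1.21 ± 0.343, edgeR adjusted p = 0.00681), Ccnb2 (-1.17 ± 0.409, adjusted p = 0.028) and Cenpf (-1.09 ± 0.368, adjusted p = 0.0223), and Smc4 had the lowest adjusted p of the 40 (-1.03 ± 0.167, adjusted p = 1.59e-05). Smc4 stood at 222, 158 and 159 CPM in B cells and 504, 446 and 465 in thymocyte-like cells, far apart in every library. The other called genes were Kif11, Dlgap5, Kif2c, Anln, Ndc80 and Tacc3, with log2 fold changes of -1.03 to -0.65. Cdca2 had the only positive value, 0.49 ± 0.259 (edgeR adjusted p = 0.158), at 28.2, 16.9 and 18.4 CPM in B cells and 16.4, 17.2 and 23.5 in thymocyte-like cells. Of all genes called, 54.9% were higher in B cells, against 44.2% in DESeq2 and 25.0% with library-size scaling. Without Cd11cYFP replicate 2, 1 of the 40 was called, without Cd11cYFP replicate 1, 4, and without MAFIA replicate 2, 16.

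Other genes of the cell cycle were counted in the same fit, and the shares of all genes called given above are the background of each count. For Cx3cr1+ against Timd4+ macrophages, 55 of 65 other mitosis genes were higher and 0 lower, led by the separase Espl1 (log2 fold change 2.88 ± 0.212), Ska3 (2.56 ± 0.499) and Oip5 (2.31). Of 51 DNA replication genes 44 were higher and 0 lower, led by Rrm2 (1.93 ± 0.44), Tyms (1.92) and Chaf1b (1.89). Cell cycle entry genes were mixed, with 8 of 16 higher, among them E2f2 (2.47) and E2f8 (2.38 ± 0.355), and 1 lower, the D-type cyclin Ccnd2 (-2.26 ± 0.258). Of 15 inhibitors 3 were higher, Cdkn1a (1.49 ± 0.341), Ccng2 (1.01) and Cdkn2d (0.60), and 0 of 12 thymocyte markers passed in either direction (edgeR). For Cx3cr1+ macrophages against monocytes the counts were 12 higher and 0 lower of the other mitosis genes, 2 and 1 of the replication genes, 0 and 4 of the entry genes (Ccnd2 -1.98 ± 0.259), 2 and 4 of the inhibitors and 1 and 0 of the thymocyte markers, the 1 being Cd4 (3.91).

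Between Xcr1+ and Ccr7+ dendritic cells, 63 other mitosis genes were higher and 1 lower, and 48 replication genes higher and 2 lower. The inhibitors ran the other way, with 10 of 15 lower in Xcr1+ cells and 3 higher, led by the Cdk4 and Cdk6 inhibitors Cdkn2b (-5.48 ± 0.33) and Cdkn2a (-4.09 ± 0.365) and by Ccng2 (-2.78). Of the entry genes 11 were higher, among them E2f8 (3.50 ± 0.297) and Myc (3.0 ± 0.257), and 1 was lower, Ccnd2 (-3.81 ± 0.262). Of the thymocyte markers 8 were lower and 0 higher. Against Cd209a+ cells, Xcr1+ cells had 9 of 65 other mitosis genes higher and 1 lower, a smaller share higher than the 15% of all genes, and 11 replication genes higher and 0 lower, 3 entry genes higher and 4 lower, 2 inhibitors higher and 4 lower and 7 thymocyte markers lower. In pDC against Xcr1+ cells the counts were 0 higher and 64 lower, 1 and 48, 3 and 9, 3 and 4, and 11 and 0 for the same lists in the same order, and in B cells against thymocyte-like cells 1 and 20, 2 and 14, 1 and 7, 3 and 7, and 0 and 12. The thymocyte-like class was named from thymocyte marker genes, so the last of these counts follows at least in part from the naming. Summed thymocyte markers were 1112, 1214 and 883 CPM in pDC, 47.3, 25.0 and 22.7 in Xcr1+, 142, 58.6 and 54.9 in Ccr7+ dendritic cells, 183, 79.1 and 94.5 in B cells and 6507, 6621 and 5942 in thymocyte-like cells. The marker list holds Cd4, Ptcra and Dntt, and the share of each gene in the pDC sums is not given. How much of these differences was thymocyte RNA, and how much the cells' own transcripts, was not tested.

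Across the 32 class and library sums, the single genes followed the summed 40 with correlations of log2 CPM from 0.72 for Gtse1, a microtubule and p53 regulator, to 0.98 for Top2a. Of 10717 genes with a mean of at least 5 CPM and outside the set, the 8 with the most similar pattern were Sgo1 (Pearson r = 0.97), Kif22, Bard1, Knl1, Ube2t, Ckap2, Kif15 and Smc2 (r = 0.95). The sums of 1 library share depth and free RNA, and these correlations are a description.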

How the data were processed

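Thymic cells sorted for a reporter were profiled by 10x single-cell 3′ RNA sequencing in 4 libraries. The authors deposited filtered matrices of raw UMI counts per gene and barcode, made with Cell Ranger; the submitters' processing notes also name STAR 2.7.9a, bcl2fastq 2.20 and GRCm39. Depth was 26876378 UMIs in MAFIA replicate 1 and 126700210 to 185882793 in the others, with counting error only in the intervals. Barcodes with 1000 to 7000 genes and at most 10% mitochondrial UMIs were kept. Cells were clustered without cell cycle genes and genes correlated with the 40 (Leiden, leidenalg 0.10.2) and named from markers, which gave 39 clusters. Doublets were scored from simulated pairs and removed only in an alternative. UMIs were summed per class and library (at least 10 cells, 32 sums, which left out 7 fibroblasts of MAFIA replicate 2) and tested with edgeR 4.0.16 (TMM, filterByExpr, quasi-likelihood F test, class plus library), with p-values adjusted by Benjamini-Hochberg over 18535 genes. The library served as a block because all its classes were measured in the same library. Deviations of classes of the same library correlated at 0.20 to 0.62. Alternatives were DESeq2 1.42.0, library-size scaling, no low-count filter, no block, each comparison alone, each library left out, and other clusterings, thinning depths and thresholds. The 40 genes, the lists and the alternatives were chosen with earlier results of these data known. Named genes are all 40, the 3 largest called changes of each other list, and the 8 genes most alike in pattern. The steps were tested on simulated data (Python 3.11.15, R 4.3.3). In counts simulated for Cx3cr1+ against Timd4+ macrophages, edgeR called 20.9% of genes changed 1.5-fold, 68.7% changed 2-fold and 95.5% changed 4-fold. Of unchanged genes it called 0.0382%.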

Additional observations from a re-analysis of the deposited data

Results flagged for a closer look

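In pDC against Xcr1+ dendritic cells, the log2 difference in MAFIA replicate 2 minus that in the Cd11cYFP libraries was -2.22 for Cenpa and -1.80 for Cks2, both past edgeR's interaction test (adjusted p = 0.00384 and 0.0287). The MAFIA arm held 1 library, and the spread in the test came from the Cd11cYFP libraries over all classes. MAFIA replicate 1, which entered no comparison of classes, held 999 CPM of the 40 genes. At 3000 UMIs, 55.2% of its 4454 barcodes reached the mitosis-positive threshold, and 1039 barcodes below that depth were left out. At 2600 UMIs the variance over the mean was 1.15, and 0.203% of its barcodes held 10 or more mitosis UMIs. The share of 55.2% is thus not comparable with those of the other libraries.

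Barcodes with more than 7000 genes, which were left out of the classes, were mitosis-positive in 57.8% of 64 in MAFIA replicate 2, 71.9% of 32 in Cd11cYFP replicate 1 and 78.3% of 46 in Cd11cYFP replicate 2. Of the clusters that took no class, one of 334 cells led by Trgc1, Cpa3 and Dntt was 72.8% mitosis-positive, one of 230 cells led by Ncam1 and Nrn1 was 26.1% and one of 205 cells led by S100a9, S100a8 and Chil3 was 4.39%.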

How the results depend on the processing

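The share of all genes called is not given for any alternative. The counts below thus have no background of their own and describe only how far the calls moved. Of the 40 genes, Xcr1+ against Ccr7+ dendritic cells called 40 under each of 12 alternatives, and pDC against Xcr1+ dendritic cells 38 to 40. For Cx3cr1+ against Timd4+ macrophages the count was 26 to 40 except without Cd11cYFP replicate 2, and 11 to 36 with 1 library left out; Bub1, Bub1b, Ccna2, Kif20a, Kif2c, Ndc80, Nusap1, Smc4, Tacc3, Top2a and Ttk were called in every setting. For Cx3cr1+ macrophages against monocytes (3 called), 19 were called with no low-count filter, 11 with the classes fitted alone, 39 with cell cycle genes in the clustering, 21 at Leiden resolution 1 and 1 to 6 with a library left out. For Xcr1+ against Cd209a+ dendritic cells (7 called), the counts were 2 in DESeq2, 0 with library size only, 16 with no low-count filter, 24 with the classes alone, 15 at resolution 4 and 3 to 4 with a library left out. For B cells against thymocyte-like cells (10 called), they were 29 with library size only, 25 with no low-count filter, 28 with the classes alone, 32 with cell cycle genes in the clustering, 3 at resolution 1, 26 at resolution 4 and 1 to 16 with a library left out. Without the replicate block these 3 comparisons called 1, 1 and 3 genes, and the pairing by library changed no other count by over 1.5 times. Over all comparisons together, the reporter interaction called 37 of 240 gene tests with no low-count filter, against 2 of 240 with it. The ratio of mitosis-positive shares, Cx3cr1+ over Timd4+ macrophages, was 1.54 with no thinning (at least 3 UMIs at full depth), 3.53 at 5 or more UMIs and 5.10 at 10 or more, and 2.0 to 2.88 with a library left out. Library-size scaling moved the median log2 fold change of all genes by -0.34 (B cells), -0.20 (Timd4+), -0.23 (Cd209a+) and 0.40 (pDC). With cell cycle genes in the clustering, 30 of the 40 genes helped to form the classes, so the counts of that setting are partly circular. The causes were not tested. Depth limits the rarest genes, such as Cdc25c, whose levels in Timd4+ macrophages were 0.892, 1.59 and 0.537 CPM.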
